A study of Mus musculus with 10 samples.

Results

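Prdm1, Xbp1, Irf4, Ell2, Creb3l2 and Eaf2 are 6 genes of the plasma-cell regulatory programme: 3 transcription factors that establish and maintain the plasma-cell state, 1 membrane-bound transcription factor of the secretory pathway and 2 factors of transcription elongation. They were picked by name, with earlier results of these data known and no threshold on a measured value, from the 19937 genes that had a probe set with a single gene symbol. Each of the 6 had exactly 1 such probe set, so none was lost to a filter. The question put to them was whether Pax5, the factor that maintains B-cell identity and is normally silenced in plasma cells, extinguishes the plasma-cell regulators when it is put back.

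The cells were J558, a mouse myeloma line, which is a transformed plasma-cell tumour, so every group carries the genome of 1 established line. All groups were infected with the same retroviral vector (MSCV, with puromycin resistance and green fluorescent protein behind an internal ribosome entry site): empty in 3 cultures, with wild-type Pax5 (Pax5 WT) in 3, and with Pax5 G183S, which has a glycine-to-serine change in the octapeptide domain, in 4. Puromycin selection lasted 5 to 7 days in every group, after which cells were sorted for green fluorescence and IgM. The labels call the replicates independent. Pax5 is driven by the vector in these cells, and the IgM gate used is not given in the sources used here.

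RNA was measured on Affymetrix whole-transcript arrays, and levels are log2 values normalised by the authors with RMA, in which a difference of 1 is a doubling. Array medians lay between 6.81 and 6.94. The Pax5 probe set read 7.10, 6.84 and 7.01 with empty vector, 10.67, 10.09 and 10.05 with Pax5 WT, and 10.22, 10.36, 9.38 and 9.96 with Pax5 G183S, so every Pax5 array lay above every empty-vector array; the probe set does not separate vector from endogenous transcript. Of 12 plasma-cell identity markers, 11 lay above the median of all values (6.89) in every group, the exception being Cd93. The mean over 9 T-cell markers ran from 6.12 to 6.30 with empty vector, from 5.87 to 6.0003 with Pax5 WT and from 5.82 to 5.99 with Pax5 G183S. The mean over 10 myeloid markers ran from 5.97 to 6.06, from 5.76 to 5.94 and from 5.80 to 6.29 in the same order. The mean over 5 erythroid markers ran from 7.68 to 7.79, from 7.75 to 7.81 and from 7.56 to 7.78. Of these lists, Cd3g, a T-cell receptor chain, passed the test described further on, with differences of -1.09 with Pax5 WT and -1.15 with G183S. The call held in 7 and in 6 of 10 omissions of 1 array. All Cd3g values, 4.87 to 6.54, lay below the median of all values. Cd4, another T-cell marker, read 7.09, 9.29 and 7.60 with empty vector and 6.37 to 6.77 with a Pax5 vector, and did not pass. Without G183S replicate 1 the myeloid markers Adgre1 and Mpo were also called lower with WT. The part of other cells in the results was not tested. As the samples are bulk RNA, fewer cells of a type and less RNA per cell cannot be told apart.

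In plasma cells, Irf4 and Prdm1 (also called Blimp-1) shut down the B-cell programme, in which Pax5 is a principal target of Prdm1, and they open the secretory programme. Xbp1 is a transcription factor made active by splicing of its own mRNA during endoplasmic reticulum stress, and it enlarges the secretory apparatus. Creb3l2 is a relative that is held in the endoplasmic reticulum membrane and released by proteases in the Golgi. Ell2 speeds RNA polymerase II and promotes the switch to secreted immunoglobulin mRNA, and Eaf2 is a partner of the Ell proteins.

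Promoter windows of 5 of the genes are printed because their levels correlated across arrays (Xbp1 with Creb3l2, and Prdm1 with Irf4 and Ell2, described further on). The windows come from RefSeq on GRCm38.p6 and run from 250 bases before to 50 bases from the annotated start, 5′ to 3′ on the gene's strand. Capitals mark every match, on either strand, to the motifs searched, some of which can share bases. Xbp1 lies at chr11:5520391-5520690 (plus strand), Creb3l2 at chr6:37442099-37442398 (minus), Prdm1 at chr10:44458699-44458998 (minus), Irf4 at chr13:30748983-30749282 (plus) and Ell2 at chr13:75707234-75707533 (plus).
Xbp1: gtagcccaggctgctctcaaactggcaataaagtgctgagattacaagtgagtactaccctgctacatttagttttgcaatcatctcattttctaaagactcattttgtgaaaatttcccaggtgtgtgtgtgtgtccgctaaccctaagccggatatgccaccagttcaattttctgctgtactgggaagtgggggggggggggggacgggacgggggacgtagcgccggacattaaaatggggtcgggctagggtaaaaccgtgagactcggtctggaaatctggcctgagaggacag
Creb3l2: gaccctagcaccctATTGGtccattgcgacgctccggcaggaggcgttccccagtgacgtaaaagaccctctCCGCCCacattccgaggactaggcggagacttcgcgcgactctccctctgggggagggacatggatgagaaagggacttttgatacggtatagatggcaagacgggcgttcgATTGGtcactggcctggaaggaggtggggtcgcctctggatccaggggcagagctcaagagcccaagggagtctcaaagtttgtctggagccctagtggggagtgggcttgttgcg
Prdm1: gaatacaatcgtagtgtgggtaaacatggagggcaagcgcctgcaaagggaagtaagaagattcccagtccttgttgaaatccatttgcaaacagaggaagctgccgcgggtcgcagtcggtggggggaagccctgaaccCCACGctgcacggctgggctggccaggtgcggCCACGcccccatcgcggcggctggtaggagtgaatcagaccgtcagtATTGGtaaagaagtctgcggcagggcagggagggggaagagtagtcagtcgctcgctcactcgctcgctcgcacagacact
Irf4: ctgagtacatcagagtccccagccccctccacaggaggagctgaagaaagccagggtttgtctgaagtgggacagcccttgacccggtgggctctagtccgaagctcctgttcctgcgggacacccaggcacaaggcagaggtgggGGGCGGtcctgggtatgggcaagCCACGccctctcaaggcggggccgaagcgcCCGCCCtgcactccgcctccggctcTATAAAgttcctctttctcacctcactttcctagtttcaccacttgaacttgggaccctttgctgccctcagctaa
Ell2: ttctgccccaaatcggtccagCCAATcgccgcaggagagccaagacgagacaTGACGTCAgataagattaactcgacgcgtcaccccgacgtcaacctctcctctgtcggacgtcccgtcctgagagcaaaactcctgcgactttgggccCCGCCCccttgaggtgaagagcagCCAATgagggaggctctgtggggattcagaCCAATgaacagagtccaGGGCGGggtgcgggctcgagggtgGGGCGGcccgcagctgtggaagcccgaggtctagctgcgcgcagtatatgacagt
The Ell2 window holds a cyclic AMP response element (TGACGTCA) at -198 to -191 from the start, a motif present in 1.79% of the 32851 RefSeq windows of this length. The Irf4 window holds a TATA box (TATAAA) at -26 to -21, a motif found in 13.6% of windows. CCAAT boxes (CCAAT, 37.4% of windows) stood in the Creb3l2, Prdm1 and Ell2 windows, and GC boxes (GGGCGG, 35.7%) in those of Creb3l2, Irf4 and Ell2. The short motif CCACG (32.8%) stood in Prdm1 and Irf4. Xbp1 and Creb3l2, the pair with the highest correlation, shared none of the 11 motifs, because the Xbp1 window held none of them. Eaf2 has 3 RefSeq windows, all on chromosome 16; each held a CCAAT box, 1 also held GC boxes and 1 a TATA box. Further motifs were in no window of the 6 genes: the endoplasmic reticulum stress element (CCAAT and CCACG with 9 bases between, 0.119% of windows), the unfolded protein response element (TGACGTGG, 0.676%), a Prdm1 motif (AGTGAAAG, 1.32%), the Ets-IRF composite element (GGAA and GAAA with 2 bases between, 2.72%), the interferon-stimulated response element (GAAA repeated with 2 bases between, 3.44%) and a Pax5 core (GCGTGAC, 2.09%). A match is a string of letters only, and no match says only that these letters are not in the window.

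None of the 6 regulators was called lower with either form of Pax5. With Pax5 WT, 0 of the 6 genes passed the test against empty vector (limma, adjusted p under 0.05), where 1.88% of all genes tested did; with Pax5 G183S it was again 0 of 6, against 0.311%. At an unadjusted p under 0.05 the counts were 0 of 6 with Pax5 WT, where 15.9% of all genes fell under it, and 1 of 6 (Xbp1) with Pax5 G183S, where 11.3% did. The empty-vector and Pax5 arrays did not overlap for 2 of the 6 genes with Pax5 WT (24.0% of all genes) and for 0 of 6 with Pax5 G183S (11.6%). The lowest level of any of them, as a share of the empty-vector level, was that of Creb3l2 with Pax5 G183S, at 70.2%, with a lower 95% limit (unadjusted) of 48.3%; with Pax5 WT the lowest was again Creb3l2, at 84.6%, with a lower limit of 56.7%. Across all alternative settings tried, the lowest such limit was 42.5% for G183S, without the empty-vector replicate 1, and 49.0% for WT, without its replicate 1. The median log2 difference over the 6 genes was 0.18 with Pax5 WT and -0.22 with Pax5 G183S, beside 0.01 and 0.00 over all genes.

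**Figure D1:**
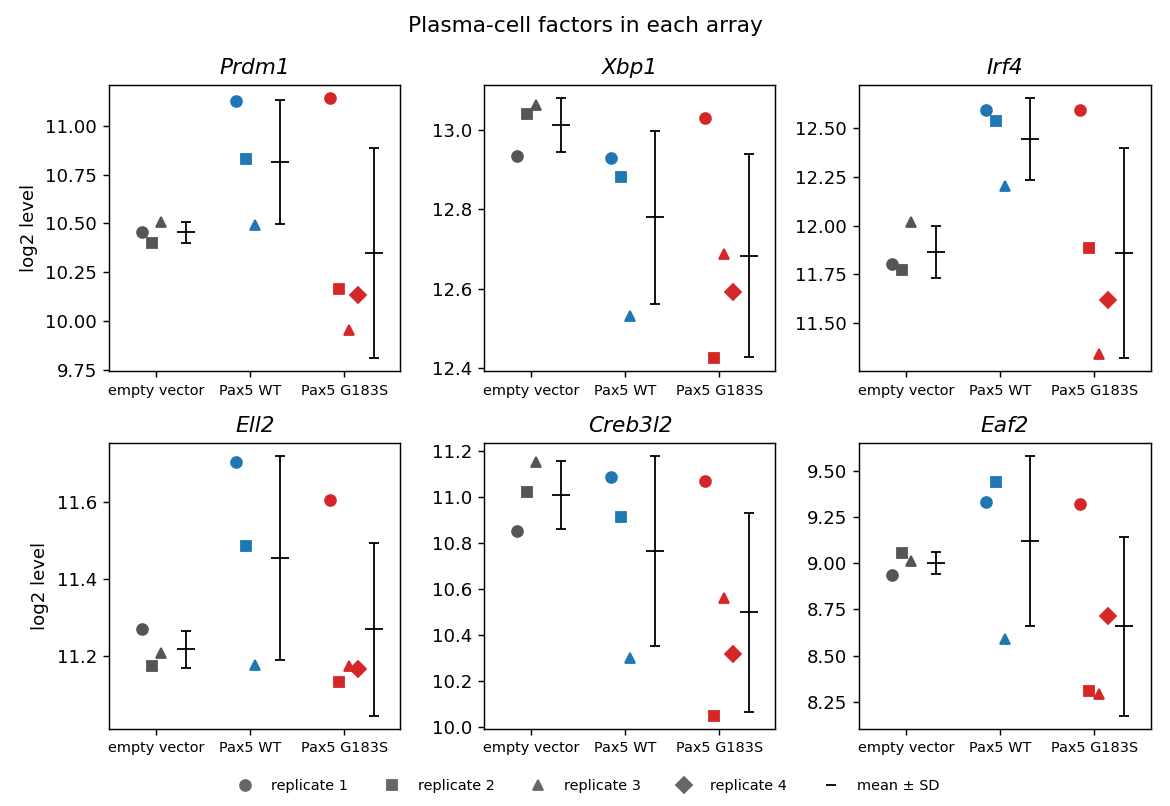
Log2 level of each gene (1 panel each) in each of the 10 arrays, by group; marker shape gives the replicate number and the bar beside each group its mean ± SD. Prdm1 lay between 9.96 and 11.14 and Xbp1 between 12.42 and 13.06, and empty vector and Pax5 WT overlap in every panel but those of Irf4 and Xbp1.

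Prdm1, the repressor that closes the B-cell programme (probe set 10368970), read 10.46, 10.40 and 10.51 with empty vector, 11.12, 10.83 and 10.49 with Pax5 WT, and 11.14, 10.16, 9.96 and 10.13 with Pax5 G183S. With Pax5 WT, 2 of the 3 arrays stood above every empty-vector array, and 3 of the 4 G183S arrays stood below all of them, while the first G183S array was the highest of the 10. Group means were 10.45 ± 0.05 (SD, n = 3), 10.82 ± 0.32 (SD, n = 3) and 10.35 ± 0.54 (SD, n = 4). The wild-type difference was 0.36 ± 0.27 on the log2 scale (standard error; 95% limits -0.25 to 0.97; limma adjusted p = 0.58), and the G183S difference was -0.11 ± 0.26 (-0.68 to 0.47; adjusted p = 0.951). Neither difference passed the test.

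Irf4, which is needed for both the start and the survival of plasma cells (probe set 10404389), read 11.80, 11.77 and 12.02 with empty vector, 12.59, 12.54 and 12.20 with Pax5 WT, and 12.59, 11.88, 11.34 and 11.62 with Pax5 G183S. All 3 wild-type arrays were above all 3 empty-vector arrays, an arrangement shown in this direction by 11.5% of all genes. The difference was 0.58 ± 0.26 (95% limits -0.01 to 1.17), which corresponds to 149% of the empty-vector level, and limma's adjusted p was 0.323. With Pax5 G183S the mean differed from empty vector by -0.01 ± 0.25 (-0.56 to 0.54; limma adjusted p = 0.998). The sign of that last difference turned when either the third or the fourth G183S array, or the third empty-vector array, was left out, with values from -0.25 to 0.17 over the arrays left out.

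Xbp1, the stress-activated factor of the secretory programme (probe set 10374035), read 12.94, 13.04 and 13.06 with empty vector, 12.93, 12.88 and 12.53 with Pax5 WT, and 13.03, 12.42, 12.69 and 12.59 with Pax5 G183S. The wild-type arrays lay below all empty-vector arrays, an arrangement that 12.5% of all genes shared in this direction, and the first G183S array lay among the empty-vector values. The differences were -0.23 ± 0.15 (-0.57 to 0.10; limma adjusted p = 0.506) and -0.33 ± 0.14 (-0.65 to -0.01; unadjusted p = 0.0423, limma adjusted p = 0.417). Xbp1 with G183S thus stood at 79.5% of its empty-vector level. The arrays measure total Xbp1 mRNA and do not separate its spliced form, so the activity of the factor is not measured by these values.

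Creb3l2 (probe set 10544002) read 10.85, 11.02 and 11.15 with empty vector, 11.09, 10.91 and 10.30 with Pax5 WT, and 11.07, 10.05, 10.56 and 10.32 with Pax5 G183S. With Pax5 G183S 3 of the 4 arrays, and with Pax5 WT 1 of the 3, were below every empty-vector array. The differences were -0.24 ± 0.26 (-0.82 to 0.33; limma adjusted p = 0.71) and -0.51 ± 0.24 (-1.05 to 0.03; adjusted p = 0.48).

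Ell2, the elongation factor (probe set 10406254), read 11.27, 11.17 and 11.21 with empty vector, 11.70, 11.48 and 11.18 with Pax5 WT, and 11.60, 11.13, 11.17 and 11.17 with Pax5 G183S. Outside the first G183S array and the first and second wild-type arrays, all values lay between 11.13 and 11.27. The differences were 0.24 ± 0.15 (-0.10 to 0.57; limma adjusted p = 0.491) and 0.05 ± 0.14 (-0.26 to 0.37; adjusted p = 0.961). Ell2 had the narrowest range of the 6 genes, 1.48-fold between its lowest and its highest array.

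Eaf2, a partner of the Ell proteins (probe set 10439346), read 8.94, 9.05 and 9.01 with empty vector, 9.33, 9.44 and 8.59 with Pax5 WT, and 9.32, 8.31, 8.29 and 8.71 with Pax5 G183S. Its values spread more in both Pax5 groups, with SD 0.46 (n = 3) and 0.48 (n = 4), than with empty vector, with SD 0.06 (n = 3). The differences were 0.12 ± 0.28 (-0.51 to 0.75; limma adjusted p = 0.883) and -0.34 ± 0.26 (-0.93 to 0.25; adjusted p = 0.739).

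**Figure D2:**
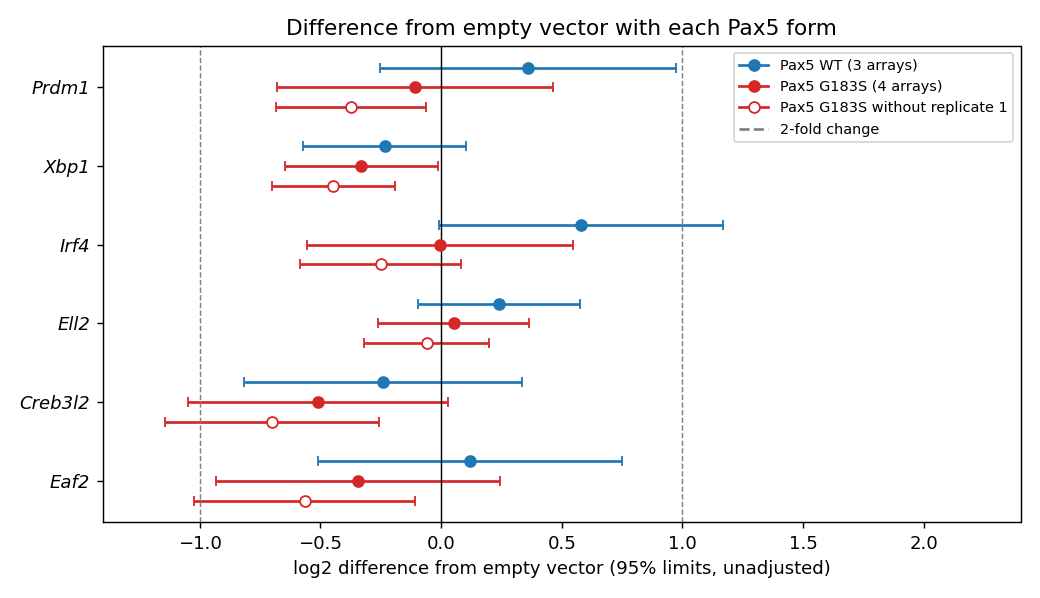
Log2 difference of each gene from empty vector with 95% limits (limma, unadjusted), for Pax5 WT in blue, Pax5 G183S in filled red and Pax5 G183S without its replicate 1 in open red; dashed lines mark a 2-fold change. No difference passes the adjusted threshold, and the lowest value with all arrays in the fit is that of Creb3l2 with Pax5 G183S, -0.51.

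The 2 Pax5 forms were compared directly. Every one of the 6 genes had a lower mean with Pax5 G183S than with Pax5 WT, with a median difference of -0.37 beside -0.02 over all genes. Irf4 differed by -0.58 ± 0.25 (95% limits -1.14 to -0.03; unadjusted p = 0.0396, limma adjusted p = 0.513), Prdm1 by -0.47 ± 0.26 (adjusted p = 0.565) and Eaf2 by -0.46 ± 0.26 (adjusted p = 0.577). Creb3l2, Ell2 and Xbp1 differed by -0.27, -0.19 and -0.10. No gene of the 6 passed, and none of the 19937 did (0.0%); at an unadjusted p under 0.05 it was 1 of 6, where 9.48% of all genes were. The arrays of both forms overlapped for all 6 (6.5% of all genes did not overlap). The 2 differences of a gene from empty vector share the same control arrays, so they are not independent of each other. With the mean of both Pax5 forms set against empty vector, 0 of 6 passed, where 1.86% of all genes did, and 0 of 6 fell under an unadjusted p of 0.05 (14.6%) or had arrays that did not overlap (6.88%). Xbp1, at -0.28 ± 0.13 (-0.57 to 0.00; limma adjusted p = 0.353), had the lowest adjusted p among the 6.

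In the exact two-sided permutation test of the difference of means, run for 18 gene and comparison pairs, the smallest raw p was 0.1, for Irf4 and Xbp1 with Pax5 WT against empty vector. This is the smallest that 3 arrays against 3 allow, and 4 against 3 allow 0.0571. Adjusted over the 18 tests, the exact p-values ran from 0.561 to 0.971.

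The comparison of the Pax5 forms turned on a single G183S array. Replicate 1 of Pax5 G183S was the highest array of its group in 6 of 6 genes, whereas this array was the highest for 28.9% of all genes. Without it, Prdm1 and Irf4 were lower with G183S than with WT, with differences of -0.73 (limma adjusted p = 0.0241) and -0.83 (adjusted p = 0.0209), so that 2 of 6 passed, while 1113 of all genes (5.58%) passed in place of 0. Against empty vector, the same omission left 0 of 6 past the threshold, where 1.48% of all genes passed, with Creb3l2 at -0.70 (adjusted p = 0.112), Eaf2 at -0.56 (0.203) and Xbp1 at -0.45 (0.0815). Among the wild-type arrays, replicate 3 was the lowest in 6 of 6 genes, where it was the lowest for 32.7% of all genes, and replicate 1 the highest in 5 of 6, where it was the highest for 33.5%. The 6 genes varied together within groups (r of deviations from the group means 0.642 to 0.992), so these counts are not 6 separate observations. Within groups, arrays correlated over all genes at r = 0.985 to 0.998. G183S replicate 1 had r = 0.9938, 0.9953 and 0.9909 with WT replicates 1, 2 and 3, beside 0.9853 to 0.9882 with the other G183S arrays. WT replicate 3 had r = 0.9939 and 0.9934 with G183S replicates 2 and 4, beside 0.9935 with WT replicate 2 and 0.9867 with WT replicate 1. The cause of these orders and correlations was not tested. Giving each array a weight estimated from its spread, G183S replicate 1 received 0.335. The Pax5 WT arrays received 0.4525, 3.479 and 0.5654, so the WT mean under this setting rests mostly on replicate 2. With these weights the genes called over all 19937 went up to 12.9% for Pax5 WT, 7.27% for G183S and 13.8% for G183S against WT. Under that setting Irf4 rose with Pax5 WT by 0.61 (limma adjusted p = 0.0321), Creb3l2 and Xbp1 fell with Pax5 G183S by 0.75 (adjusted p = 0.0299) and 0.46 (adjusted p = 0.0264), and Prdm1, Irf4 and Eaf2 were lower with G183S than with WT.

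**Figure D3:**
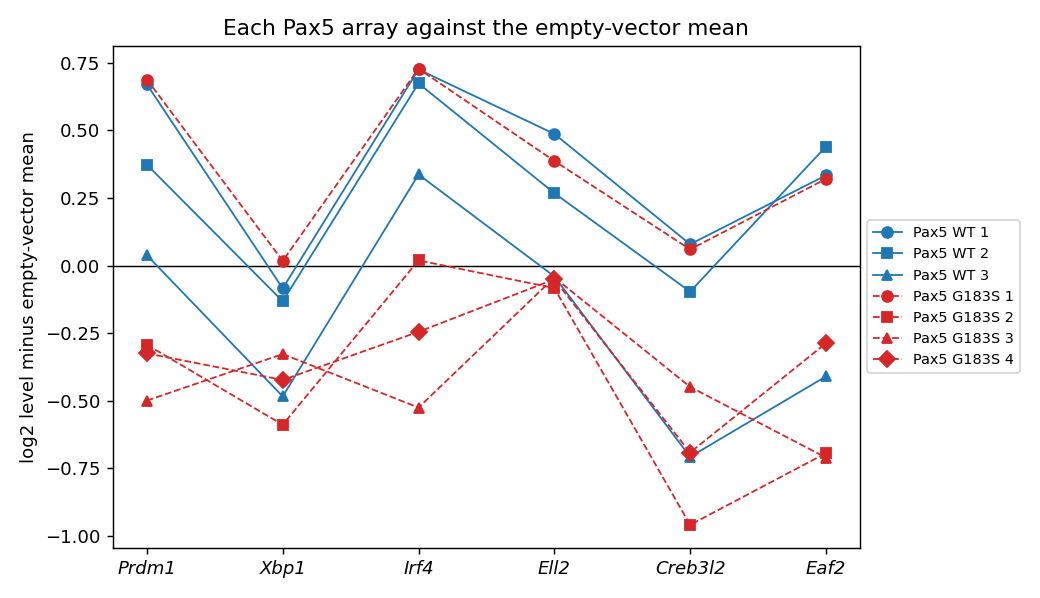
Log2 level of each gene minus its empty-vector mean, 1 line for each of the 7 arrays with a Pax5 vector (blue for Pax5 WT, dashed red for Pax5 G183S). Replicate 1 of G183S lies above the other 3 G183S arrays in all 6 genes, and replicate 3 of WT below the other WT arrays.

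Some pairs of the 6 genes were closely correlated across the 10 arrays and others less so. For deviations from the group means, r over the 15 pairs ran from 0.642 to 0.992. Xbp1 and Creb3l2 had Pearson's r = 0.981 and Spearman's rho = 0.891 (n = 10; permutation p of r adjusted over the 15 pairs = 0.000225, of rho 0.0055), with r = 0.958 without the 2 farthest arrays, 0.979 without the first G183S array and 0.992 for deviations from the group means. Prdm1 and Irf4 had r = 0.942 and rho = 0.952 (n = 10; permutation p of r adjusted = 0.000225), and 0.942 for deviations. Prdm1 and Ell2 had r = 0.918 and rho = 0.903 (n = 10; permutation p of r adjusted = 0.00135), and 0.775 without the 2 farthest arrays. The lowest of the 15 was Xbp1 with Irf4, r = 0.35 (rho = 0.188; n = 10; permutation adjusted p = 0.316), and for deviations from the group means it was 0.68. In all, 9 of 15 pairs passed by r and 8 by rho. The permutation shuffled the arrays across all groups, so it does not separate differences between groups from variation within them. The share of all gene pairs that would pass was not computed. The pairs share arrays, normalisation and whatever differs between cultures, and their order says nothing of control of one gene by another.

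**Figure D4:**
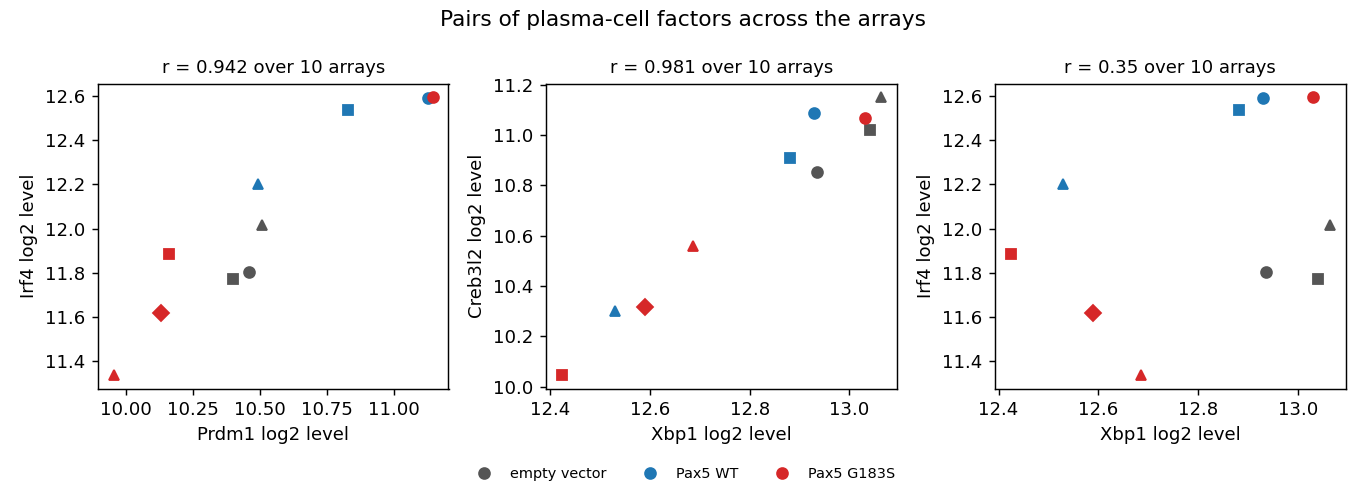
Log2 levels of pairs of genes on the 10 arrays, colour by group and marker shape by replicate number: Prdm1 with Irf4, Xbp1 with Creb3l2, and Xbp1 with Irf4. The first pairs rise together, with r = 0.942 and r = 0.981, and the points of the last pair scatter, with r = 0.35.

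Genes most like each of them across the 10 arrays were ranked by Pearson's r, as a description. Irf4 stood closest to Gpr160 (r = 0.968), Cenpw (0.968), a centromere protein, and Birc5 (0.965), which encodes survivin and acts in chromosome segregation. Prdm1 stood closest to Ccdc116 (0.990), Gart (0.987), a purine synthesis enzyme, and Ralgps2 (0.979). Xbp1 stood closest to Rex1bd (0.985), Arsb (0.981), a lysosomal sulfatase, and Creb3l2 (0.981). Creb3l2 in turn stood closest to Xbp1, Rex1bd (0.975) and Rab5if (0.972). Ell2 stood closest to Trap1 (0.988), a mitochondrial chaperone, Guf1 (0.986) and Ctu2 (0.981), and Eaf2 to Nat9 (0.973), the histone gene H2bc18 (0.968) and Txndc5 (0.965), an endoplasmic reticulum disulfide isomerase. Genes with r over 0.9 numbered 385 for Prdm1, 339 for Ell2, 135 for Irf4, 121 for Eaf2, 93 for Xbp1 and 87 for Creb3l2 out of 19937.

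Among the 7 arrays with a Pax5 vector, levels were set against the Pax5 level. Irf4 had r = 0.735 (exact permutation p = 0.0458, adjusted over 6 genes 0.252; rho = 0.714, exact p adjusted 0.264) and Prdm1 r = 0.671 (exact p = 0.0839, adjusted 0.252; rho = 0.714). Without the 2 arrays farthest from the median Pax5 level these became 0.185 and 0.104, so r over the 7 arrays rests on those 2, which also hold the widest Pax5 values; taking them out narrows the Pax5 range. None of the 6 passed after adjustment, and Xbp1 (0.240), Creb3l2 (0.274), Eaf2 (0.521) and Ell2 (0.584) gave exact adjusted p-values from 0.35 to 0.629. Within the 4 G183S arrays, r was 0.719 for Irf4, 0.514 for Prdm1, -0.0449 for Xbp1 and -0.12 for Creb3l2, and within the 3 wild-type arrays 0.647, 0.877, 0.637 and 0.713.

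Listed targets and partners of the 6 genes are given by counts over all the listed genes that were measured. Of 18 measured genes that Prdm1 is known to repress, 3 rose with Pax5 WT and 0 fell: Irf8, a B-cell and myeloid interferon regulatory factor, by 2.29 (limma adjusted p = 0.00767), Fcer2a, the CD23 receptor, by 2.74 (adjusted p = 0.0412), and Blnk, a B-cell receptor adaptor, by 1.25 (adjusted p = 0.0216). The median of the 18 was 0.32, beside 0.01 over all genes. Pax5 is the factor put into these cells. An effect of Pax5 itself on the listed genes and an effect through Prdm1 cannot be told apart in this design, and neither was tested. With Pax5 G183S, 1 of 18 rose, Irf8 by 1.85 (adjusted p = 0.0171), and Fcer2a and Blnk had 3.003 (adjusted p = 0.0501, past the threshold under 9 of 20 alternatives) and 0.70 (adjusted p = 0.15). The median was 0.20. Irf8 read 7.92, 8.07 and 7.90 with empty vector, 10.53, 10.08 and 10.17 with Pax5 WT, and 10.31, 9.99, 9.05 and 9.91 with Pax5 G183S. Every Pax5 array thus exceeded every empty-vector array for Irf8. Swap70, a B-cell signalling protein, and Syk, a kinase of B-cell receptor signalling, differed by 0.83 and 0.84 with Pax5 WT (adjusted p = 0.078 and 0.13), and Ciita, the master activator of MHC class II genes, by 0.43 with WT and 0.67 with G183S (adjusted p = 0.26 and 0.118). Without G183S replicate 1, 5 of the 18 rose with WT (Swap70 and Syk in addition) and 2 with G183S (Irf8 and Fcer2a), while calls over all genes went from 1.88% to 5.18% and from 0.311% to 1.48%. These calls depend on single arrays: the Irf8 call held in 9 of 10 omissions of 1 array with WT (not without empty-vector replicate 3, adjusted p = 0.0572) and in 6 of 10 with G183S, Blnk in 7 of 10 with WT and Fcer2a in 3 of 10 with WT. Without limma's moderation none of them passed, with an adjusted p of 0.0658 for Irf8 with WT. With replicate numbers as a block in the limma fit, Irf8 with WT kept its call (adjusted p = 0.0253). Blnk (0.056) and Fcer2a (0.073) with WT and Irf8 with G183S (0.093) did not.

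Of 22 genes listed as induced by Prdm1, 1 rose with Pax5 WT, and 0 rose or fell with Pax5 G183S. The 1 was Sesn3, a stress-response protein, by 1.76 (limma adjusted p = 0.0216, called in 6 of 10 omissions). Whether Prdm1 induces the listed genes was not tested. The place of Sesn3 and of Castor1 on the list is uncertain, so the Sesn3 call is not read as Prdm1 activity. The sign counts below include both genes. Sdc1, the plasma-cell surface proteoglycan CD138, differed by -0.64 with WT and -1.14 with G183S (adjusted p = 0.339 and 0.119), and Tnfrsf17, which encodes the survival receptor BCMA, by -0.78 and -2.08 (adjusted p = 0.54 and 0.119). Slamf7, a surface receptor of plasma cells, differed the other way with WT, by 0.40 (adjusted p = 0.178), and by 0.08 with G183S (adjusted p = 0.912). The differences of the 22 were above 0 for 9 and below for 13 with WT, and above for 6 and below for 16 with G183S. The medians of the 22 were -0.06 with WT and -0.09 with G183S, beside 0.01 and -0.003 over all genes. Without G183S replicate 1, 3 of the 22 were lower with G183S (Derl3, Sdc1 and Tnfrsf17) and 1 was higher (Sesn3); over all genes 0.762% were then lower and 0.717% higher. Of 35 measured genes of Xbp1 activation and secretion, 0 passed with either form, and the medians were -0.04 and 0.03. Derl3, a component of endoplasmic reticulum degradation, differed by -0.43 with WT and -0.51 with G183S (adjusted p = 0.24 and 0.2), and Spcs2, a signal peptidase subunit, by 0.25 and 0.24 (adjusted p = 0.108 and 0.16). Herpud1, which acts in degradation at the endoplasmic reticulum, had -0.42 with Pax5 WT (adjusted p = 0.0893). The 9 measured relatives of Creb3l2, its proteases and its coat-protein targets had 0 calls; Sec23a, a coat-protein gene, differed by -0.37 and -0.24 (adjusted p = 0.16 and 0.478). Without G183S replicate 1, 2 of the 35 secretory genes (Derl3 and Herpud1) and Sec23a were lower with Pax5 WT, and Derl3 with G183S, at the shares of all genes just given for G183S and 3.33% lower for WT.

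For the partners of elongation, 27 genes were measured and 0 passed with either form; Larp7, a protein of the 7SK complex, was called higher with G183S without its replicate 1. Ccnt2, a cyclin of the elongation factor P-TEFb, differed by 0.21 with Pax5 WT and 0.32 with G183S (adjusted p = 0.262 and 0.118), and Mllt3, a reader in the super elongation complex, by -0.17 and -0.26 (adjusted p = 0.39 and 0.228). The list medians were -0.07 and 0.01. Aff3, a scaffold of the super elongation complex, was lower with the mean of both Pax5 forms, with a difference of -0.91 (limma adjusted p = 0.0462), a call kept in 2 of 10 omissions. For Irf4, of 21 measured partners and regulators, Rel, an NF-kB subunit, rose with Pax5 WT by 0.56 (adjusted p = 0.0484) and Jund, an AP-1 subunit, fell by 0.37 (adjusted p = 0.0478) with WT and by 0.45 (adjusted p = 0.0421) with G183S. Rel with WT and Jund with WT each kept the call in 2 of 10 omissions, and Jund with G183S in 3 of 10. With replicate numbers as a block in the limma fit none of these held (adjusted p = 0.0557, 0.0701 and 0.115), nor did that of Aff3 (0.052). Ikzf3, which encodes the lymphoid factor Aiolos, had 1.29 and 0.51 (adjusted p = 0.177 and 0.753). Of 7 measured other members of the IRF family, Irf8 alone passed, higher with both forms. The differences of the 7 were above 0 for 2 and below for 5 with WT, and above for 1 and below for 6 with G183S. Their medians were -0.50 and -0.28, beside 0.01 and -0.003 over all genes. Irf1 had -1.13 with Pax5 WT (adjusted p = 0.116, and 0.0364 without G183S replicate 1) and Irf7 -0.93 with G183S (adjusted p = 0.105). None of the 12 plasma-cell identity markers passed with either form, and their medians were -0.33 and -0.37. Tent5c, a poly(A) polymerase that stabilises immunoglobulin mRNA, had 0.62 with WT (adjusted p = 0.426) and -0.17 with G183S (adjusted p = 0.927). Without G183S replicate 1, Derl3 was called lower with WT (3.33% of all genes were) and Derl3, Sdc1 and Tnfrsf17 with G183S (0.762%); Cd93 was called lower with WT without G183S replicate 3, and Tnfrsf13b with G183S without WT replicate 1.

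**Figure D5:**
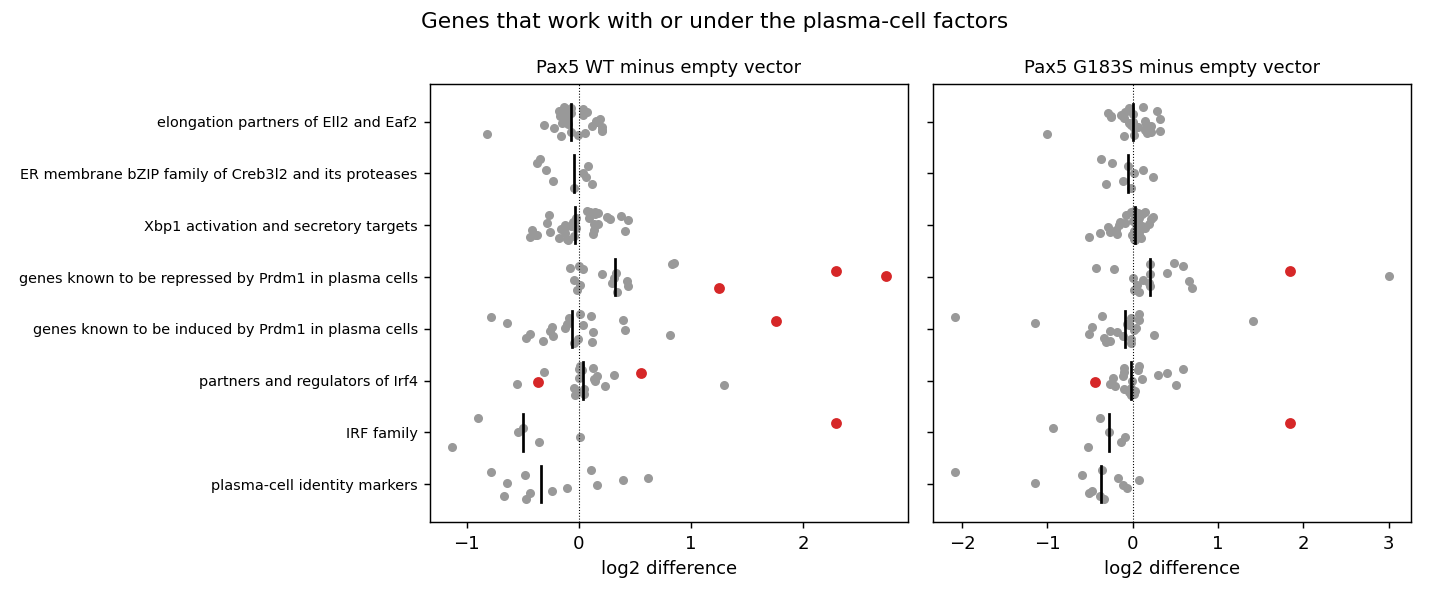
Log2 difference from empty vector for every measured gene of the lists around the 6 genes, with Pax5 WT and Pax5 G183S; black bars mark list medians and red points the genes past the adjusted threshold. The list of genes known to be repressed by Prdm1 holds 3 red points with Pax5 WT, all above 0, and its median is 0.32. Whether these genes rose through Prdm1 was not tested.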

How the data were processed

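The 10 arrays of J558 cells comprised 3 empty vector, 3 Pax5 WT and 4 Pax5 G183S, grouped by the labels, which also give the replicate numbers. Per the labels' protocols, RNA was extracted with Trizol and 100 ng was amplified. The authors deposited log2 values per probe set; per the submitters' processing notes the tools were RMA and Partek, with no version named. Since RMA equalises the distributions of the arrays, a change common to nearly all genes cannot be seen. No scan batch was tested.

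Of 34760 probe sets, 22961 were annotated, 21640 with 1 gene symbol, 1321 with several and 11799 without an entry; 21553 single-symbol probe sets matched a RefSeq identifier and 0 symbols changed. The probe set with the highest mean was used for the 954 genes with several, giving 19937 genes. The comparisons used limma 3.58.1 in R 4.3.3, all arrays in 1 fit (7 residual and 2.88 prior degrees of freedom), with two-sided Benjamini-Hochberg adjustment over all genes, called under 0.05, and 95% limits unadjusted. No filter on dim probe sets was applied, and none of the 10 arrays held values identical to another. Named genes are the 6, Pax5, the genes of each list past the threshold and up to 3 more with the smallest p against empty vector, the cell-type markers, and the 3 genes most correlated with each of the 6 over 10 arrays, with symbols of gene predictions, clones, olfactory or vomeronasal receptors, small RNAs and antigen-receptor segments passed over. The alternatives were a replicate block, fits to the compared groups only, array weights, no moderation, other scalings, a dim filter, other probe-set rules and each array left out. The model code was tested on simulated data. Plots and permutation tests used Python 3.11.15 (numpy 2.4.6, pandas 2.3.3, matplotlib 3.10.9). The 6 genes and the gene lists were chosen with earlier results of these data known. The number of arrays limits the precision.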

Additional observations from a re-analysis of the deposited data

Results flagged for a closer look

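Ell2 in replicate 1 of Pax5 G183S read 11.604, the highest of the 4 G183S arrays, with a gap to the next array of 0.917 of the group's range, above Dixon's critical value of 0.829. Irf7 in replicate 3 read 8.0262, the lowest of the 4, with a gap of 0.842 of the range. Tent5c in replicate 1 read 11.7073, the highest of the 4, with a gap of 0.897. These were 3 of 32 genes tested in the group of 4, and chance alone flags about 1 in 20 groups. Replicate 1 was the highest of its group in 6 of 6 of the plasma-cell factors, and the cause was not tested. These genes varied together within groups, so they are not 6 separate observations.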

How the results depend on the processing

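Of 474 recomputed values of the 6 genes, 455 kept their direction and side of the threshold, 9 passed it newly, 0 lost it and 10 turned direction. With array weights the number of the 6 past the threshold was 1 (Irf4) for Pax5 WT, 2 (Creb3l2 and Xbp1) for G183S, 3 (Eaf2, Irf4 and Prdm1) for G183S against WT and 1 (Xbp1) for the mean of both forms, in place of 0 each. Leaving out 1 array gave 0 to 0, 0 to 0, 0 to 2 and 0 to 0. Genes past the threshold moved from 374 for Pax5 WT to 228 with the replicate block, 587 with only the groups compared, 2576 with array weights, 4 with no moderation and 6 to 1033 with 1 array left out. For G183S, 62 became 10 with the replicate block, 1449 with array weights, 6 with no moderation and 8 to 295 with 1 array left out. For G183S against WT, 0 became 2, 2752, 1 and 0 to 1113 under the same settings, and for the mean of both forms 371 became 196, 1863, 33 and 28 to 637. The replicate numbers were not taken to pair the arrays, since same-number correlations of deviations ran from -0.16 to 0.51 and 3 of 9 exceeded 0.1; the highest of all pairs were nevertheless same-number ones, WT 1 with G183S 1 (0.507) and WT 3 with G183S 3 (0.455), beside 0.285 for the highest different-number pair. The block changed no call of the 6 genes, and with it the adjusted p was 0.056 for Blnk, 0.073 for Fcer2a, 0.0557 for Rel, 0.0701 for Jund and 0.0584 for Cd3g with WT, 0.093 for Irf8, 0.115 for Jund and 0.126 for Cd3g with G183S, and 0.052 for Aff3 with both forms, all called without it; Irf8 (0.0253) and Sesn3 (0.0341) with WT kept theirs.

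Directions turned for values near 0: Irf4 with G183S was 0.0741 with the replicate block and -0.2503 to 0.1675 with 1 array left out, Ell2 with G183S -0.0219 with array weights and -0.0593 to 0.0975, Prdm1 with G183S -0.3723 to 0.0236 and with both forms -0.0059 to 0.2073, Eaf2 with WT -0.0381 to 0.3869 and with both forms -0.2212 to 0.0221, Swap70 with G183S -0.0001 to 0.3501, Slamf7 with G183S -0.011 to 0.1918, and Fcer2a between the forms -0.2544 with array weights and -0.2267 to 0.6525. Correlations with Pax5 turned for Xbp1 (-0.0541 without the farthest arrays, -0.0449 within G183S), Creb3l2 (-0.0854 and -0.12) and Eaf2 (-0.208). The medians of the 6 kept their direction, except for the mean of both forms, which ran from -0.1135 to 0.1147 with 1 array left out. The cause of these changes was not tested.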
